A study of Homo sapiens with 3 samples.

Results

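A set of 8 genes of sterol and fatty acid synthesis were followed across an osimertinib-sensitive lung cancer line and its osimertinib-resistant derivatives. HMGCS1, IDI1, FDFT1 and SQLE encode enzymes of cholesterol synthesis, FASN and SCD enzymes of fatty acid synthesis, and SREBF2 and INSIG1 regulators of both routes. They were chosen by symbol, taking every non-control probe that carries one of these names, and they are 8 of the 43316 gene or transcript names on the array. Each was represented by 1 probe, spotted 1 time on each array, and each was well above background on all 3 arrays, so none was lost to a filter.

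NCI-H1975 (H1975) is a non-small cell lung cancer line with mutant EGFR, the receptor that osimertinib inhibits. OR1 and OR2 were derived from it independently, as clones, with osimertinib doses raised in steps over 4 months to a top dose of 2 μmol/L, and the labels call H1975 osimertinib sensitive and OR1 and OR2 osimertinib resistant. All 3 lines were grown in RPMI medium with fetal bovine serum, and whether the drug was in the medium when RNA was taken is not given in the sources used here. Total RNA of each line was hybridized to 1 Agilent single-colour array, all 3 arrays on 1 slide. There was therefore no replicate of any line, no difference below was tested between replicates, and OR1 and OR2 were compared with the same H1975 array.

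Cells make cholesterol from acetyl-CoA through mevalonate, isoprenoids and squalene, and they make palmitate from acetyl-CoA through malonyl-CoA. Both routes are under SREBP transcription factors, which are made as membrane-bound precursors in the endoplasmic reticulum. When sterols are scarce, SCAP escorts the precursors to the Golgi, where they are cleaved, and the released part enters the nucleus and binds sterol regulatory elements in its target genes. When sterols are plentiful, INSIG proteins hold SCAP and the precursor in the endoplasmic reticulum. SREBF2 encodes SREBP-2, best known for the cholesterol genes, and SREBF1 encodes SREBP-1, best known for the fatty acid genes. INSIG1 is itself a target of SREBPs, and fetal bovine serum supplies cells with lipoprotein cholesterol.

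The 250 bases before the annotated start site were read for the members that the promoter table used here holds, which are HMGCS1, IDI1, SCD, SREBF2 and INSIG1. The windows of HMGCS1 and INSIG1 are shown because both genes were down-regulated in OR1 and OR2, and that of SREBF2 because its mRNA stayed near the H1975 level. Sequences are from RefSeq on GRCh38.p14, 5′ to 3′ on the strand of the gene. Capitals mark exact matches, on either strand, to 4 motifs. The core of the sterol regulatory element was searched as CACCCCAC. The box bound by NF-Y was searched as CCAAT, and that bound by SP1 as GGGCGG. The E-box was searched as CACGTG, and the motifs were allowed to overlap.
HMGCS1 at chr5:43313413-43313662, minus strand: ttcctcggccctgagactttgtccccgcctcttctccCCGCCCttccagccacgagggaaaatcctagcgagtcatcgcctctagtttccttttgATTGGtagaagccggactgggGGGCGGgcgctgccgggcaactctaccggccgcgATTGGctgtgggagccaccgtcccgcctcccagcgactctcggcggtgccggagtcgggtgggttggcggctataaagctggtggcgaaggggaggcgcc
INSIG1 at chr7:155297628-155297877, plus strand: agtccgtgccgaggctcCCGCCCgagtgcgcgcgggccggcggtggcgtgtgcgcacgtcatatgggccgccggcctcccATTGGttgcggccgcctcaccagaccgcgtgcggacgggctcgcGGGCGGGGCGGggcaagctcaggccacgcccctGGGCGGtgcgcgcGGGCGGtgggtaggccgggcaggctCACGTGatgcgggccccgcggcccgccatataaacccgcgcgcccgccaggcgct
SREBF2 at chr22:41832855-41833104, plus strand: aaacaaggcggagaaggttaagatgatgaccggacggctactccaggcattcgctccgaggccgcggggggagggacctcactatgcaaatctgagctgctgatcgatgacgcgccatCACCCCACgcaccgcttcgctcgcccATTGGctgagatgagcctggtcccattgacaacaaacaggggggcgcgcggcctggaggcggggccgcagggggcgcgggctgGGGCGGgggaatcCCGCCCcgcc

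HMGCS1, at this start site, held 2 NF-Y boxes, whose first bases lay 155 and 100 bases before the start, and SP1 boxes at 213 and 134. INSIG1 held an NF-Y box at 170, an E-box at 55 and 5 SP1 boxes, of which the pair at 126 and 121 overlap by a base. SREBF2 held the sterol regulatory element core at 132, an NF-Y box at 106 and SP1 boxes at 23 and 10. Of these 5 members, SREBF2 was the one whose windows held the 8 letters of the core, which occur in 2.43% of the 35116 promoter windows read the same way. Counted over the 8 member windows, several of which belong to 1 gene, an NF-Y box was found in 6 and an SP1 box in 8, where 32.0% and 42.6% of all windows hold one. The E-box of INSIG1 occurs in 6.34% of windows. A match of letters describes the sequence and is not a measurement of binding. Other spellings of the sterol regulatory element, and bases outside these windows, were not searched. The lack of a match therefore does not show that a gene lacks the element. Start sites of HMGCS1 and IDI1 beyond the first were read as well, and the second window of HMGCS1 and the first of IDI1 were the ones without an NF-Y box.

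The arrays were alike in depth of signal. The 75th percentile of intensity, on which each array was scaled, was between 138 and 162, and between 45.6% and 45.9% of probes were well above background. Levels below are scaled intensities, given as multiples of that percentile, and a level of 1 probe is not comparable with that of another. Ratios are of these levels, and genes were called up-regulated at a ratio of at least 2 and down-regulated at a ratio of at most 0.5, the limits stated in the methods of the study. The technical SD propagated from the scanner software's error for the spots was 0.20 on the log2 scale for the ratio of every member. Most of it is the 10% multiplicative error preset in the software, and it does not cover differences between cultures or RNA preparations. The epithelial markers in the RNA were measured as well, since these are carcinoma cells. All 8 were well above background on every array, with scaled intensities that summed to 2945, 1147 and 1242 in H1975, OR1 and OR2. Of the 8, 6 were down-regulated in both OR lines, as were 4.70% of all genes well above background on all 3 arrays. KRT8 and KRT18, keratins of simple epithelia, had ratios of 1.12 and 0.884 in OR1 and 0.964 and 0.806 in OR2. Of the dimmer probes of KRT8, 1 gave 1.02 and 0.969 in OR1 and OR2, and 1 gave 0.673 and 0.634. Of the 5 lung lineage markers, SFTPB and SFTPA1 cleared the background limit in no line. NKX2-1 had ratios of 0.252 and 1.36, with OR2 at 5.42 times OR1, NAPSA had 0.770 and 1.57, and SFTPC was up-regulated in both lines, at 3.78 and 4.87. Among 6 fibroblast markers, COL3A1, DCN and PDGFRA stayed under the limit on every array. COL1A1 had ratios of 1.45 and 0.183, COL1A2 of 0.162 and at most 0.0615, and LUM cleared the limit in OR1 alone, at least 5.43 times the H1975 level. CD3E of T cells and KDR of endothelium were under the limit everywhere, while 3 of 4 blood and 3 of 4 endothelial markers cleared it on all arrays. CD14, a monocyte marker, was up-regulated in both lines, at 4.25 and 6.56, and PECAM1 in OR1, at 2.10. PTPRC, CD79A, VWF and CDH5 passed neither limit in any line. The summed scaled intensity of the fibroblast list was between 0.645 and 4.96, that of the blood list between 10.5 and 16.1 and that of the endothelial list between 0.586 and 0.731, and the part of these differences in the results below was not tested.

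Of the 4 cholesterol arm members, SQLE and HMGCS1 were down-regulated in both OR lines as compared to H1975, IDI1 in OR1 alone and FDFT1 in neither. SQLE, squalene epoxidase, which adds oxygen to squalene in a rate-limiting step of the sterol branch, had the lowest ratios of this arm. Its level was 21.3 in H1975 as against 5.75 in OR1 and 5.99 in OR2. OR1 and OR2 were close to each other and both far below H1975, with ratios of 0.270 and 0.281, that is 3.70-fold and 3.56-fold lower. Of all genes well above background on the 3 arrays, 2.12% had a lower ratio than SQLE in OR1 and 1.73% in OR2.

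HMGCS1, the cytosolic synthase that makes HMG-CoA for the mevalonate route, was also down-regulated in both lines. H1975 had a level of 7.53, OR1 of 2.85 and OR2 of 3.28. The ratios were 0.378 in OR1 and 0.436 in OR2. IDI1, the isomerase that makes dimethylallyl pyrophosphate from isopentenyl pyrophosphate, stood at 6.89 in the parental line and at 3.34 and 3.77 in OR1 and OR2. It passed the limit of 0.5 in OR1, with a ratio of 0.486 (0.502 in the authors' normalized values), and not in OR2, with 0.547. FDFT1, squalene synthase, which commits farnesyl pyrophosphate to sterols, measured 30.6 in the parental line, 19.9 in OR1 and 16.8 in OR2. Its ratios of 0.650 and 0.548 passed the limit in neither line, although both lay beyond the technical SD.

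**Figure D1:**
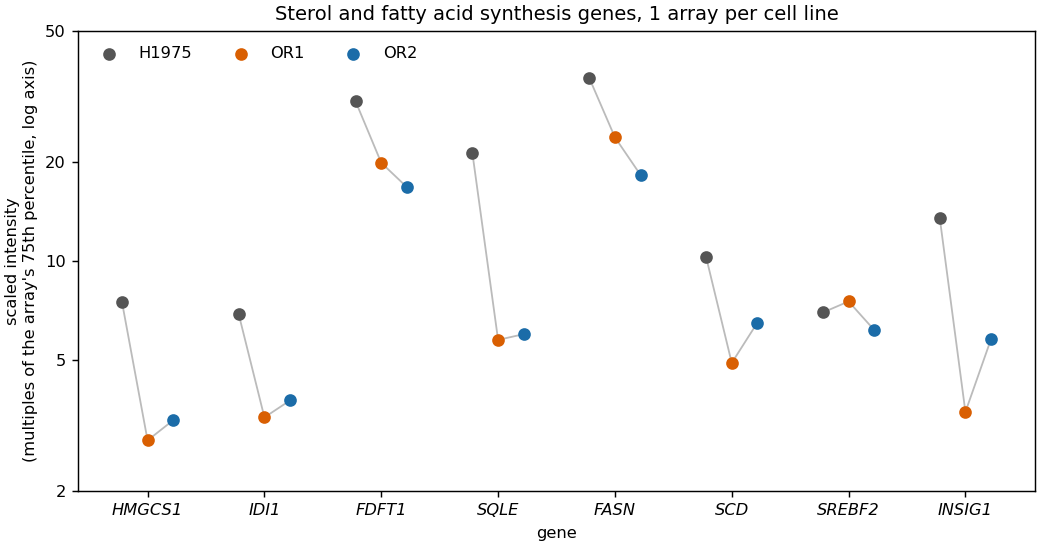
Scaled intensity (multiples of the 75th percentile of the array, log axis) of the 8 genes in H1975 (grey), OR1 (orange) and OR2 (blue), 1 array per line, with grey lines joining the points of 1 gene. The H1975 point lies above both OR points for 7 genes, and the 3 points of SREBF2 lie between 6.16 and 7.53.

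The fatty acid arm had 2 members, and neither was down-regulated in both lines. FASN, the multienzyme that builds palmitate, had levels of 36.1, 23.8 and 18.3 in H1975, OR1 and OR2. The ratios were 0.659 and 0.506, just outside the limit in OR2 and just inside it with median scaling (0.499). SCD, the desaturase that turns palmitate and stearate into monounsaturated fatty acids, had levels of 10.3, 4.90 and 6.50 in the same order. It was down-regulated in OR1, with a ratio of 0.475, while its ratio in OR2 was 0.631. With this scaling the line with the lower level was OR2 for FASN and OR1 for SCD. For FASN this depends on the scaling, as OR2 was at 1.22 times OR1 with spike-in scaling.

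The regulators differed from each other. INSIG1, the anchor that keeps SCAP in the endoplasmic reticulum, measured 13.5 in H1975 and dropped to 3.47 in OR1 and 5.79 in OR2. It was down-regulated in both lines, with ratios of 0.256 and 0.428, and the ratio in OR1 was the lowest of the 8 genes. SREBF2, the precursor of the factor that drives the cholesterol genes, had levels of 6.97, 7.53 and 6.16 in the parental line, OR1 and OR2. Its ratios of 1.08 in OR1 and 0.884 in OR2 both lay within the technical SD of 1, and OR1 fell on the other side of H1975 when the arrays were not scaled (0.947) or were scaled on spike-in probes (0.712). The arrays measure SREBF2 mRNA and not the cleaved protein, so the activity of SREBP-2 was not measured.

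Of the 8 members, 3 (37.5%) were down-regulated in both OR lines, namely HMGCS1, SQLE and INSIG1, and 0 were up-regulated in both. Among all 18589 genes well above background on all 3 arrays, 4.70% were down-regulated and 4.77% up-regulated in both. Counted line by line, 5 members were down-regulated in OR1 and 3 in OR2, where the share of all genes was 7.93% and 6.70%. A ratio below 1 in both lines was found for 7 of 8 members, and for 39.8% of all genes. For the log2 ratio, the medians of the members were −1.06 (OR1) and −0.93 (OR2), whereas all genes had 0.03 and −0.05. These shares and medians describe the list, which was named with earlier results of these data known, and both counts rest on the same H1975 array.

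**Figure D2:**
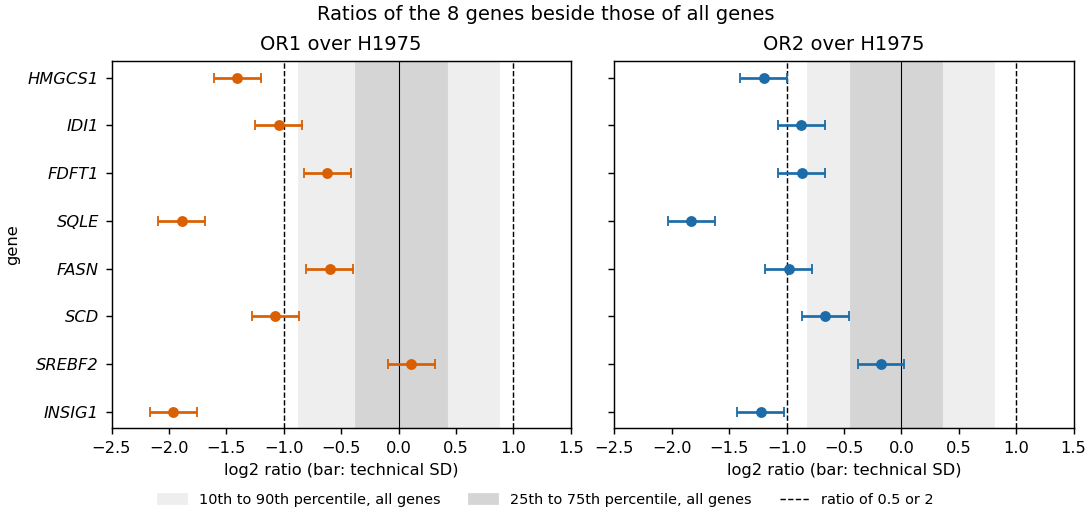
Log2 ratio of each gene in OR1 (left) and OR2 (right) over H1975, with bars for the technical SD, beside the central part of the ratios of all genes well above background on all 3 arrays (dark grey, 25th to 75th percentile, and light grey, 10th to 90th). HMGCS1, SQLE and INSIG1 lie left of the line for a ratio of 0.5 in both panels, and SREBF2 lies near 0.

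When OR1 and OR2 are treated as 2 samples of resistant cells against the lone H1975 array in limma, with 1 residual degree of freedom, 0 members passed an adjusted p of 0.05. SQLE came nearest, with an adjusted p of 0.080 by limma, followed by HMGCS1 with 0.156, INSIG1 with 0.189 and IDI1 with 0.238, and SREBF2 had the highest, 0.969. Without adjustment, 4 members were lower and 0 higher at a limma p under 0.05, against 9.48% and 9.15% of all genes. Over all 22417 genes well above background on at least 1 array, the same fit called 373 genes lower (1.66%) and 208 higher (0.928%) after adjustment. This fit takes the spread of H1975 to be that of the OR lines and has no measurement of it.

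OR1 and OR2 were then compared directly, which leaves H1975 out. No member passed 2 or 0.5, against 1.87% and 1.70% of all genes. INSIG1 differed most, with OR2 at 1.67 times the level of OR1, and 95.5% of all genes had a lower ratio. SCD followed at 1.33, while HMGCS1 stood at 1.15, IDI1 at 1.13 and SQLE at 1.04. On the other side, FDFT1 had a ratio of 0.843, SREBF2 of 0.818 and FASN of 0.768. For HMGCS1, IDI1 and SQLE the log2 difference between the OR lines did not exceed the technical SD. For the other 5 members it did, but that SD does not cover differences between cultures or RNA preparations. With 1 array per line, the order of OR1 and OR2 is thus not resolved for any member. With spike-in scaling all 8 ratios were above 1, INSIG1 reached 2.65 and SCD 2.11, so the side on which FDFT1, SREBF2 and FASN fall depends on the scaling.

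The choice of scaling changed the size of the ratios more in OR1 than in OR2. The 7 probes for spike-in control RNAs were brighter in OR1 than in H1975 by 0.41 and dimmer in OR2 by 0.03 on the log2 scale, before any scaling. Scaling on them shifted all genes in OR1 by −0.60 in the median of the log2 ratios, and the members shifted with them. SQLE then had a ratio of 0.178 in OR1, INSIG1 of 0.169 and HMGCS1 of 0.249. HMGCS1, SQLE and INSIG1 were down-regulated in both lines under each of the scalings and background corrections tried. At a stricter limit of 4-fold 0 members passed in both lines, and at a looser limit of 1.5-fold 7 did, that is each except SREBF2. The share of all genes that pass these other limits in both lines was not counted.

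**Figure D3:**
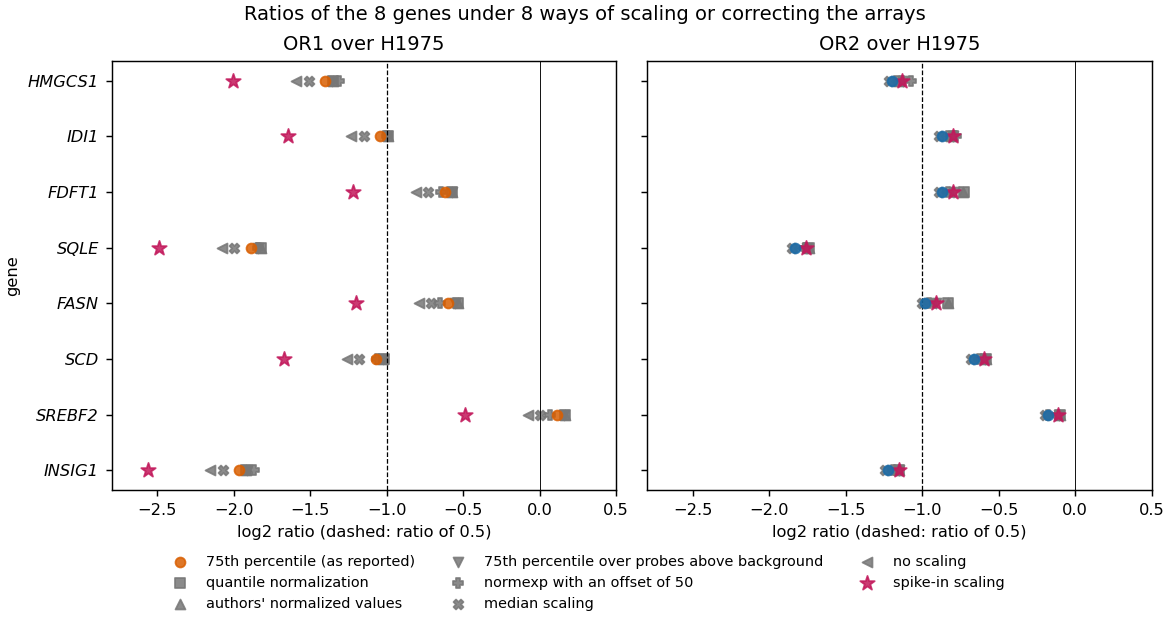
Log2 ratio of each gene over H1975 in OR1 (left) and OR2 (right) under 8 ways of scaling or background-correcting the arrays. In OR1 the spike-in scaling (star) lies left of all others for every gene, and the SREBF2 points cross 0, whereas in OR2 the symbols of a gene lie close together.

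Positions of the probes, on hg19 as the files give them, put the 8 genes on 6 chromosomes. SQLE (NM_003129) was measured at chr8:126034443-126034502 and FDFT1 (NM_004462) at chr8:11696201-11696260, on the other arm. HMGCS1 (NM_002130) was measured at chr5:43290117-43290176, IDI1 (NM_004508) at chr10:1086619-1086678, SCD (NM_005063) at chr10:102123917-102123976, FASN (NM_004104) at chr17:80036216-80036275, SREBF2 (NM_004599) at chr22:42302199-42302258 and INSIG1 (NM_005542) at chr7:155101843-155101902. No annotation of that build was used, so the exon of each probe is not given. Since SQLE and FDFT1 share a chromosome, and IDI1 and SCD another, each member was set beside the 20 genes measured nearest to it.

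SQLE stood out by the medians of its neighbours and by the calls among them. The 20 genes nearest to it, all within 1.80 Mb, gave medians of −1.02 (OR1) and −0.97 (OR2) for the log2 ratio, 17 of the 20 were below 1 in both lines (39.8% of all genes), and 8 of the 20 were down-regulated in both (4.70% of all genes). SQLE was lower than that median by 0.87 in OR1 and by 0.86 in OR2, and 2 neighbours had a lower ratio than SQLE in OR1 and 0 in OR2. The count below 1 in both lines was not particular to SQLE. It was 16 of 20 around SREBF2, 15 around INSIG1, 14 around FASN and 12 around SCD. Around IDI1 it was 8, around FDFT1 6 and around HMGCS1 2. What the lower level of the genes around SQLE has to do with that of SQLE was not tested, and DNA was not measured. HMGCS1 was the opposite case, as its neighbours had medians of 0.38 and 0.59, none of the 20 was as low as HMGCS1 in either line, and 0 were down-regulated in both. INSIG1 too had 0 neighbours with a lower ratio in either line, with medians of −0.34 and −0.37. For FDFT1 the medians of the neighbours were 0.50 and 0.22, on the other side of 1 from FDFT1 itself. For FASN they were −0.25 and −0.72, so that FASN lay below its surroundings by 0.35 and 0.27, and 5 and 3 of the neighbours were lower still. SREBF2 was higher than the median of its neighbours in both lines, by 0.30 and 0.25.

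**Figure D4:**
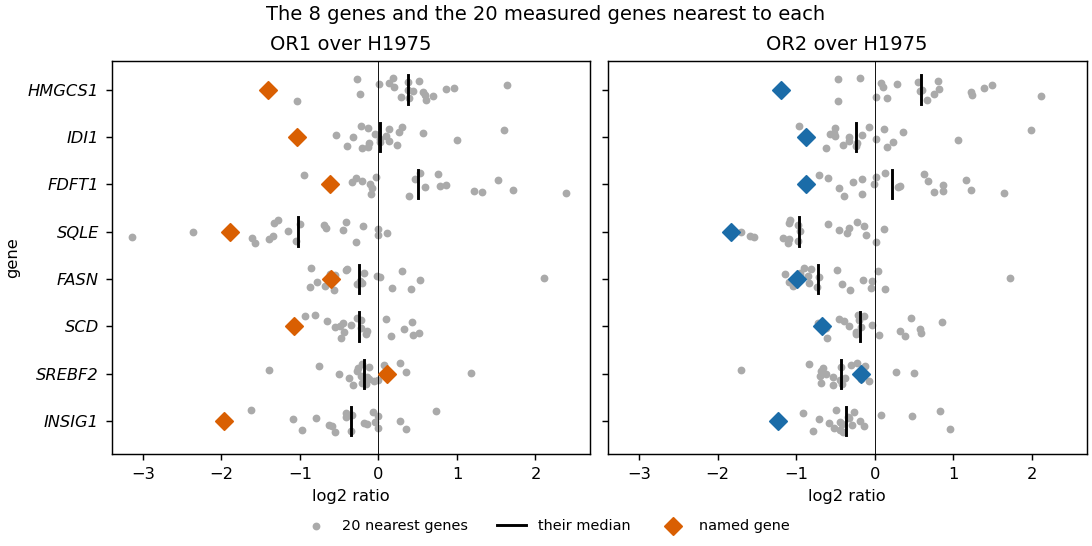
Log2 ratio in OR1 (left) and OR2 (right) over H1975 of each of the 8 genes (diamond), of the 20 measured genes nearest to it on its chromosome (grey points, spread vertically for legibility) and their median (black bar). The neighbours of SQLE have medians of −1.02 and −0.97, the lowest of the 8 sets, and those of HMGCS1 0.38 and 0.59.

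The members were next placed among 74 other genes of these pathways, of which 66 cleared the background limit on 1 or more arrays and 65 on all 3. Of the 66, 3 (4.55%) were down-regulated and 5 (7.58%) up-regulated in both OR lines, where all 22417 genes gave 6.32% and 5.09%. Pooled over the lists, the pathway genes other than the members were thus near the background. Over the 65 the log2 ratios had medians of −0.01 and −0.05, but the lists differed from each other, as given below.

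Among the mevalonate, isoprenoid and sterol steps other than the members, 14 of the 19 genes measured on all arrays were below 1 in both lines. Of all genes, 39.8% were. The log2 ratios of the 19 had medians of −0.39 (OR1) and −0.60 (OR2). By stage, 6 of 7 mevalonate and isoprenoid genes and 8 of 12 genes from squalene to cholesterol were below 1 in both. CYP51A1, the lanosterol demethylase, was the 1 gene of these steps that was down-regulated in both, from 20.5 in H1975 to 8.77 and 8.82 in the OR lines, with ratios of 0.429 and 0.431. TM7SF2, a sterol reductase that removes a double bond after that step, was up-regulated, from 0.231 to 1.12 and 1.36, with ratios of 4.84 and 5.86. It was 1 of 4 genes of these steps above 1 in both lines, beside GGPS1 (1.42 and 1.42), LSS (1.67 and 2.28, and 4.15 and 7.50 by a dimmer probe) and SC5D (1.24 and 1.96), which were named after their values were seen. SC5D was close to the background limit in H1975, and its log2 ratio in OR1 (0.31) lay within its technical SD (0.42). NSDHL and EBP, which act later on the sterol ring, had ratios of 0.539 and 0.576 in OR1 and 0.516 and 0.493 in OR2.

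Of the sensing and processing genes, 2 of 8 were below 1 and 5 above 1 in both lines, and 0 were called in both. Of all 22417 genes, 6.32% were down-regulated and 5.09% up-regulated in both. A count of 0 in so short a list, here and in the uptake list below, is near those shares. The share of all genes above 1 in both lines is not given here. SCAP, the escort of SREBPs, had ratios of 1.71 and 1.55. INSIG2, the paralog of INSIG1, had ratios of 0.618 and 0.618, but its second probe gave 0.803 and 1.21, so the probes disagreed in OR2. SREBF1 had ratios of 1.16 and 1.71, and its second, dimmer probe gave 1.17 and 0.856, which again differ in direction in OR2. In the uptake, storage and transport list 0 of 11 genes were called in both. In that list 4 genes were below 1 and 5 above 1 in both lines, with median log2 ratios of −0.12 and 0.28. Of all genes, 39.8% were below 1 in both. SOAT1, which esterifies cholesterol for storage, had ratios of 0.465 and 0.527. It is named because it lay nearest to the median of the members, and it does not stand for its list.

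The fatty acid list held most of the calls, and it was also the largest, with 20 genes above background on 1 or more arrays. Of these, 10% were down-regulated and 20% up-regulated in both lines, against 6.32% and 5.09% of all genes. Its log2 ratios had medians of 0.02 and 0.20, and 6 of 19 genes were below 1 in both lines, as were 39.8% of all genes. ACLY, which supplies cytosolic acetyl-CoA to both arms, was down-regulated in both lines, from 16.6 in H1975 to 6.57 and 7.90, with ratios of 0.395 and 0.475. ACACA, the carboxylase that makes malonyl-CoA for FASN, had ratios of 0.734 and 0.938, and 0.670 and 0.527 by a dimmer probe. ACACB, the mitochondrial carboxylase whose malonyl-CoA restrains fatty acid oxidation, was up-regulated, with ratios of 2.27 and 2.76, while of its other probes 1 gave at least 1.36 and at least 1.41 and 1 was not well above background. SCD5, the second desaturase, did not clear the background limit in H1975 and measured 0.513 in OR1 and 0.309 in OR2, so that its ratios were at least 6.42 and at least 3.88. It was thus on the other side of H1975 from SCD, although 2 of its 4 probes were not well above background on any array. FADS3, a desaturase of the front-end family, was up-regulated from 1.94 to 11.8 and 12.7, with ratios of 6.09 and 6.53.

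The remaining calls were in the dehydratases of fatty acid elongation. HACD4 (listed as PTPLAD2) was down-regulated from 3.72 in H1975 to 0.246 and 0.502 in the OR lines, with ratios of 0.0662 and 0.135, and it was the 1 pathway gene that passed the limit between the OR lines, with OR2 at 2.04 times OR1. HACD1 (listed as PTPLA) was at the limit, with ratios of 2.10 and 2.00, and a second probe gave 1.42 and 1.24. In the list of fatty acid activation and lipogenic regulators 0 of 8 genes were called in both lines (6.32% and 5.09% of all genes). Its log2 ratios had medians of −0.12 and −0.04, and 3 of the 8 were below 1 in both lines (39.8% of all genes). By limma, FADS3 passed (adjusted p = 0.045), as did SCD5 (adjusted p = 0.0498), whose H1975 level was not measured above background, and 0 pathway genes passed on the lower side. The fit has 1 H1975 array and no measure of its spread.

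**Figure D5:**
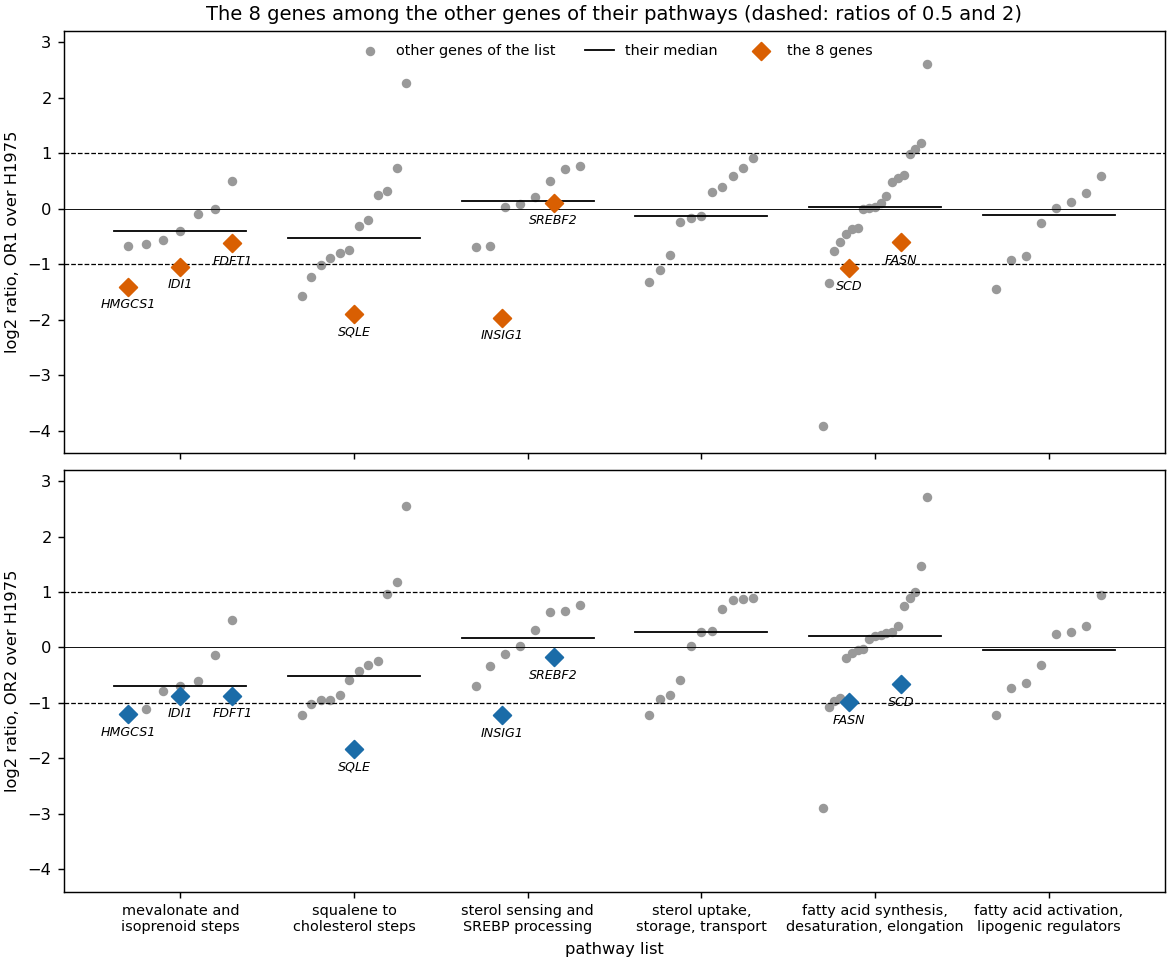
Log2 ratio in OR1 (top) and OR2 (bottom) over H1975 of the 8 genes (diamonds) and of the 65 other pathway genes well above background on all 3 arrays (grey points, ordered by ratio within each list, with the median as a bar). SQLE and INSIG1 lie below every other gene of their lists in OR1 and OR2, and the points above the upper dashed line are TM7SF2 in the squalene list and, in the fatty acid list, FADS3, ACACB and HACD1, with LSS of the squalene list in OR2.

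By the pair of ratios in OR1 and OR2, the pathway genes nearest to the median of the members were SOAT1, at a distance of 0.05 on the log2 scale, NSDHL at 0.17 and EBP at 0.28. Among all 18589 genes the 5 nearest were GUSBP11, MTFR2, MT1L, TP53I13 and the transcript ENST00000603395, at distances of up to 0.035. In all, 73 genes (0.393%) lay within 0.1 and 403 (2.17%) within 0.25 of it, and the likeness rests on 3 arrays.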

How the data were processed

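Gene expression was measured on SuperPrint G3 Human 8x60K single-colour arrays, 1 per line. The deposited scanner files hold spot intensities that the authors' Agilent Feature Extraction software corrected for background and spatial trend, with no scaling between arrays (version 10.7.1.1 per the file headers, 9.5.1.1 per the labels). A second deposited table holds normalized intensities, whose method is not given in the sources used here. From the scanner files, control spots and outlier spots (45 to 61 per array) were left out, repeated spots averaged, and the 75th percentile of log2 intensity over 58200 probes subtracted per array. No spot was saturated. The brightest probe stood for a gene, and a side not well above background was replaced by the higher of its own value and the lowest value well above background, giving "at least". The limma fit used the values without this replacement. Ratios of 2 and 0.5 were the limits. Python 3.11.15, R 4.3.3 and limma 3.58.1 were used, and the steps were tested on simulated data. The members, the pathway and marker lists and the rule for named genes (members, pathway genes called in both OR lines or between them, SREBF1, SCAP, INSIG2, ACACA, and the genes nearest to the members' median) were chosen with earlier results of these data known. Promoter windows of 5 members were read, and those of FASN, FDFT1 and SQLE were not used here. The values of some genes that the rule names are not reported here.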

Additional observations from a re-analysis of the deposited data

Results flagged for a closer look

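With the main scaling SREBF2 had a ratio of 1.08 in OR1 and of 0.884 in OR2, on opposite sides of the same H1975 array. Both of these ratios lay within the technical SD of 1, and with 1 array per line no test was possible. The side on which OR1 fell also depends on the scaling. Without scaling the ratios were 0.947 in OR1 and 0.908 in OR2, and with spike-in scaling 0.712 and 0.927, so that both lines were then below H1975. Opposite directions in the OR lines are therefore not shown.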

How the results depend on the processing

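The 3 members down-regulated in both OR lines were the same genes under all scalings and background corrections tried, and 0 members were up-regulated in both under any alternative. A ratio of 1.5 gave 7 members down-regulated, a ratio of 4 gave 0 and limma gave 0. The share of all genes at the ratios of 1.5 and 4 was not counted. Member and pathway counts at those ratios therefore have no background beside them. The median log2 ratio of the members in OR1 was −1.66 with spike-in scaling and lay between −1.25 and −1.01 otherwise, and that in OR2 between −0.95 and −0.82. Without scaling the median log2 ratio of all genes moved by −0.19 in OR1, with median scaling by −0.11. The filters and the median over probes could not move a member, each with 1 unsaturated probe above background on all arrays. Of 192 member ratios under the other 8 alternatives, 168 stayed within the technical SD, and the rest came from spike-in scaling or no scaling. Several alternatives shift all members of an array by the same amount, so these are not 192 separate checks. Scaled on the spike-in probes, OR1 over H1975 gave 0.249 for HMGCS1, 0.320 for IDI1, 0.428 for FDFT1, 0.178 for SQLE, 0.435 for FASN, 0.313 for SCD, 0.712 for SREBF2 and 0.169 for INSIG1. The ratio of OR2 over OR1 for the same genes in that order was 1.83, 1.79, 1.34, 1.66, 1.22, 2.11, 1.30 and 2.65 with spike-in scaling, and 1.35, 1.32, 0.988, 1.22, 0.899, 1.56, 0.959 and 1.96 without scaling. Pathway genes up-regulated in both numbered 5, against 3 without scaling, 3 with spike-in scaling, 2 with normexp, 3 with the median over probes, 11 at a ratio of 1.5, 2 at a ratio of 4 and 2 by limma. Those down-regulated in both numbered 3, against 5 without scaling, 6 with spike-in scaling, 18 at a ratio of 1.5, 1 at a ratio of 4 and 0 by limma. Another ratio changes a count by construction. Spike-in scaling and no scaling likewise shift all genes of an array by 1 common amount. The cause of the other moves was not tested. No replicate could be left out, and no paired analysis was possible because each line had 1 array. That number limits the precision.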
